A study of Sus scrofa with 2 samples.

Results

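Macrophage scavenger and resident genes were followed through single-nucleus RNA libraries of pig left ventricle. The set was chosen by name and holds 10 genes, CD163, MRC1, STAB1, MSR1, LYVE1, TIMD4, CD209, F13A1, MERTK and SIGLEC1, out of 31908 genes in the deposited matrices, and all 10 were present under these symbols. Frozen pieces of the free wall of the left ventricle came from Bama pigs, a small breed, that had been fed a high-fat, high-sucrose diet for 12 months. WT is 1 library of wild-type heart, and TG is 1 library of triple-transgenic heart carrying PNPLA3I148M-GIPRdn-hIAPP, that is, a variant of the lipid-handling enzyme PNPLA3, GIPRdn, a form of the receptor for the gut hormone GIP, and human islet amyloid polypeptide. Both groups ate the same diet, so no group on ordinary feed is compared here, and the age of the pigs, the number of animals behind a library and the promoters of the transgenes were not given in the sources used here. The question posed by the series is how cell types of the heart differ between these genotypes. With 1 library per genotype no difference between WT and TG has a replicate check, no p-values were computed, and the 95% intervals below cover counting error only.

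Tissue macrophages of the heart lie between the muscle cells, engulf dying cells and debris, and are often recognised by receptors for scavenging. CD163 takes up complexes of haemoglobin and haptoglobin. MRC1 is the mannose receptor, and CD209 is another C-type lectin that binds sugars on pathogens and glycoproteins. MSR1, the class A scavenger receptor, binds modified lipoproteins, and STAB1, or stabilin-1, is a large scavenger receptor of macrophages and some endothelia. MERTK is a receptor kinase and TIMD4 a phosphatidylserine receptor, and both help phagocytes to recognise apoptotic cells. SIGLEC1 binds sialic acid on other cells, and F13A1 encodes the A subunit of coagulation factor XIII, a transglutaminase that crosslinks fibrin. LYVE1 is a hyaluronan receptor known both as a marker of lymphatic vessels and as a marker of long-lived resident macrophages.

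In the RefSeq annotation of build Sscrofa11.1 the members lie on 8 chromosomes. CD163 lies at chr5:63300200-63334497, MRC1 at chr10:44107926-44226734, MSR1 at chr17:3859903-3939612 and F13A1 at chr7:3751290-3900797. LYVE1 lies at chr2:48937357-48954206 and CD209 at chr2:71394414-71397711. TIMD4 lies at chr16:66253572-66292963 and MERTK at chr3:44349377-44483400. STAB1 lies at chr13:34630448-34659371 and overlaps its neighbour NT5DC2, whose level in macrophage-like nuclei was 2.73 in WT and 9.15 in TG. Levels are in CPM, the UMIs (unique molecular identifiers, counted RNA molecules) of a gene for every 1000000 UMIs of nuclear-encoded genes, summed over the nuclei of a class. SIGLEC1 lies at chr17:31994505-32021239, 1863 bases from ADAM33.

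The libraries held 18251 and 15000 barcodes, of which 16725 WT and 14939 TG nuclei were kept, with median totals of 5442 and 3937 UMIs. The lowest barcode total was 500 UMIs in WT and 1972 UMIs in TG. The libraries shared 81 barcodes, 75 of them among kept nuclei. Transcripts of cardiomyocytes were present in every other class and more so in TG: their markers stood at a median of 8.74% of their cardiomyocyte level in WT and 26.6% in TG macrophage-like nuclei, and at 10.1% and 23.6% in lymphatic endothelial-like nuclei. Their part in the results below was not tested beyond the subtraction given with them.

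Macrophage-like nuclei, named from 13 measured markers such as CSF1R and C1QA, none of them a member, numbered 1494 in WT (8.93% of nuclei, Clopper-Pearson interval 8.50% to 9.38%) and 618 in TG (4.14%, 3.82% to 4.47%). They consisted of 4 sub-clusters found without the members' counts. M0 held 844 WT and 5 TG nuclei, M3 held 380 and 4, M1 held 32 and 447, and M2 held 238 and 162. Most WT nuclei of the class therefore lay in M0 and M3 and most TG nuclei in M1, so genotype, library and sub-cluster cannot be told apart. Lymphatic endothelial-like nuclei, with all 10 measured markers raised, were 1 cluster of 928 WT (5.55%) and 580 TG (3.88%) nuclei. Other lymphatic-led clusters, the biggest with 115 WT and 115 TG nuclei, also carried markers of other classes and were set aside as mixed.

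Among named classes with at least 100 nuclei, 9 of the 10 genes had their highest level in macrophage-like nuclei in both libraries, and LYVE1 had it in lymphatic endothelial-like nuclei. CD163 measured 2293 CPM in WT (2254 to 2332) and 4155 CPM in TG (4060 to 4251) in macrophage-like nuclei. Its cardiomyocyte level was 2.29 and 6.69 CPM, a macrophage excess of 1002-fold (862 to 1172) and 621-fold (555 to 698). The next class held more CD163 than that, with 91.0 CPM in WT (Schwann or neural) and 62.4 CPM in TG (T or NK lymphocyte). F13A1 stood at 842 CPM in WT and at 1179 CPM in TG macrophage-like nuclei against 0.830 and 2.42 CPM in cardiomyocytes. The nuclei given no class name, 191 in WT and 159 in TG and mostly of the related sub-clusters M6 and M8 described below, held still more F13A1, at 1153 and 1416 CPM. MSR1 measured 446 and 433 CPM in macrophage-like nuclei, and its next class held 20.3 CPM in WT and 14.3 CPM in TG. For these 3 genes no other named class came near the macrophage level in either library.

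CD209 and TIMD4, a lectin and a receptor for dying cells, were also macrophage genes but sparse. CD209 stood at 44.2 CPM in WT and at 77.2 CPM in TG macrophage-like nuclei, and in nuclei thinned to 1000 UMIs each it was seen in 3.71% (2.80% to 4.81%) and 6.47% (4.66% to 8.71%). The cardiomyocyte shares were 0.0298% and 0.0565%, at median depths before thinning of 10065 and 7672 UMIs against 3731.5 and 2605.5 in macrophage-like nuclei. TIMD4 rested on 23 UMIs in each library, in 17 WT and 15 TG nuclei of the class, giving 3.93 CPM (2.49 to 5.89) and 13.1 CPM (8.34 to 19.7). After thinning it was seen in 8 of 1455 WT nuclei and 3 of 618 TG nuclei, too few to compare at equal depth. Before thinning the shares were 1.14% in WT (0.664% to 1.82%) and 2.43% in TG (1.36% to 3.97%). These intervals overlap, which by itself does not decide whether the shares differ. No TIMD4 UMI was found in lymphatic endothelial-like nuclei, where 0 UMIs allow a level of up to 0.624 CPM in WT and 1.73 CPM in TG.

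MRC1, STAB1 and MERTK each had a clear endothelial level as well. MERTK, the efferocytosis receptor, stood at 628 CPM in WT and at 457 CPM in TG macrophage-like nuclei, 87.4 and 203 CPM in lymphatic endothelial-like nuclei, and 84.8 and 157 CPM in vascular endothelial-like nuclei. Cardiomyocytes held 1.20 and 2.12 CPM of MERTK, and fibroblast-like nuclei 10.9 and 14.3 CPM. Schwann or neural nuclei held 106 CPM in WT, the second highest level there, and 60.7 CPM in TG. In WT the vascular and lymphatic levels of MERTK did not differ beyond their intervals, and in both libraries they lay below the macrophage level. SIGLEC1 stood at 14.9 CPM in WT and at 22.3 CPM in TG macrophage-like nuclei, and fibroblast-like nuclei came next with 7.88 and 13.1 CPM. Its neighbour ADAM33 stood at 75.9 CPM (WT) and 57.2 CPM (TG) among the fibroblasts, but at 0.171 and 1.14 CPM among the macrophages. Whether reads of ADAM33 enter the fibroblast count of SIGLEC1 was not tested.

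**Figure D1:**
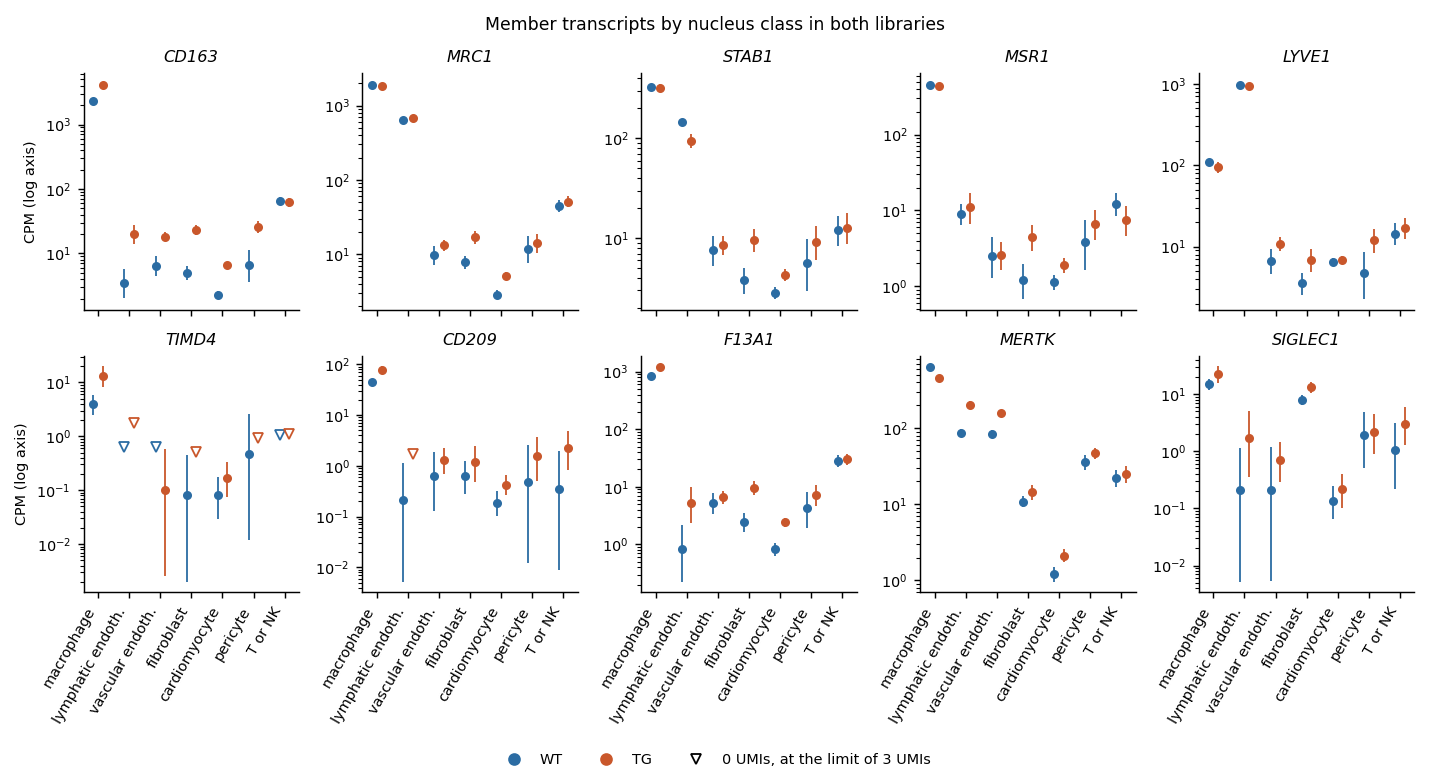
Levels of the 10 members in CPM (log axis, a separate scale per gene) in 7 nucleus classes, WT in blue and TG in orange, with exact 95% Poisson intervals, and open triangles for 0 UMIs at the limit of 3 UMIs. The macrophage point is highest for every gene except LYVE1, whose lymphatic endothelial points lie at 967 and 948 CPM.

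LYVE1 and STAB1 were shared between macrophage-like and lymphatic endothelial-like nuclei in opposite proportions. LYVE1 measured 110 CPM in WT (102 to 119) and 94.3 CPM in TG (80.5 to 110) in macrophage-like nuclei. Its lymphatic level was 967 CPM in WT (939 to 995) and 948 CPM in TG (903 to 995), which is 8.76 times (8.07 to 9.53) and 10.0 times (8.56 to 11.9) the macrophage level. STAB1 stood at 326 CPM in WT and at 323 CPM in TG macrophage-like nuclei and 145 and 94.1 CPM in lymphatic endothelial-like nuclei. The macrophage level of STAB1 was thus 2.25 times (2.06 to 2.45) the lymphatic level in WT and 3.43 times (2.88 to 4.11) in TG. Because sub-cluster M2 held nearly no member UMIs, leaving it out moved the STAB1 ratio to 2.67 and 4.59 and the LYVE1 ratio of macrophage over lymphatic from 0.114 and 0.0995 to 0.135 and 0.131.

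MRC1, the mannose receptor, was the third member with a high lymphatic level. It stood at 1916 CPM in WT and at 1841 CPM in TG macrophage-like nuclei and 630 and 683 CPM in lymphatic endothelial-like nuclei, a ratio of 3.04 (2.92 to 3.17) and 2.70 (2.52 to 2.88). The lymphatic level of MRC1 was 220 times (192 to 254) the cardiomyocyte level in WT and 134 times (117 to 155) in TG, and that of LYVE1 was 147 times and 137 times. CD163, in contrast, stood at 3.54 CPM in WT and at 20.2 CPM in TG lymphatic endothelial-like nuclei, and F13A1 0.832 and 5.20 CPM. Macrophage-like nuclei held 648 times (405 to 1113) the lymphatic level of CD163 in WT and 206 times (148 to 295) in TG. The scavenger genes therefore divided into MRC1, STAB1, LYVE1 and MERTK, present in both classes, and CD163, F13A1, MSR1, CD209, TIMD4 and SIGLEC1, whose lymphatic levels were at most 20.2 CPM.

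Over all nuclei, lymphatic endothelial-like nuclei were the biggest source of LYVE1 UMIs and macrophage-like nuclei the biggest source of STAB1 UMIs in both libraries. Lymphatic endothelial-like nuclei gave 69.2% of LYVE1 UMIs in WT and 55.6% in TG, and macrophage-like nuclei 9.62% and 5.59%. For STAB1 the lymphatic part was 18.6% and 9.68%, and the macrophage part 50.8% and 33.6%. The mixed clusters held a further 10.9% and 19.3% of LYVE1 UMIs and 16.0% and 29.5% of STAB1 UMIs. The mixed part was larger in TG for LYVE1, STAB1, CD163 (16.5% and 31.6%) and MRC1 (15.1% and 27.4%).

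In nuclei thinned to 1000 UMIs, LYVE1 was seen in 54.0% of WT and 55.2% of TG lymphatic endothelial-like nuclei and in 9.07% and 8.41% of macrophage-like nuclei, against 0.938% and 0.753% of cardiomyocytes. Before thinning the lymphatic shares were 85.7% and 78.4%, at median depths of 4858.5 and 2690 UMIs. STAB1 was seen in 11.3% and 9.66% of thinned lymphatic nuclei and 27.6% and 27.2% of thinned macrophage-like nuclei, with cardiomyocyte shares of 0.298% and 0.527%. MRC1 was seen in 39.6% and 48.8% of thinned lymphatic nuclei and in 0.447% and 0.527% of cardiomyocytes. All 3 shares in the lymphatic class lay well above the cardiomyocyte background at equal depth.

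**Figure D2:**
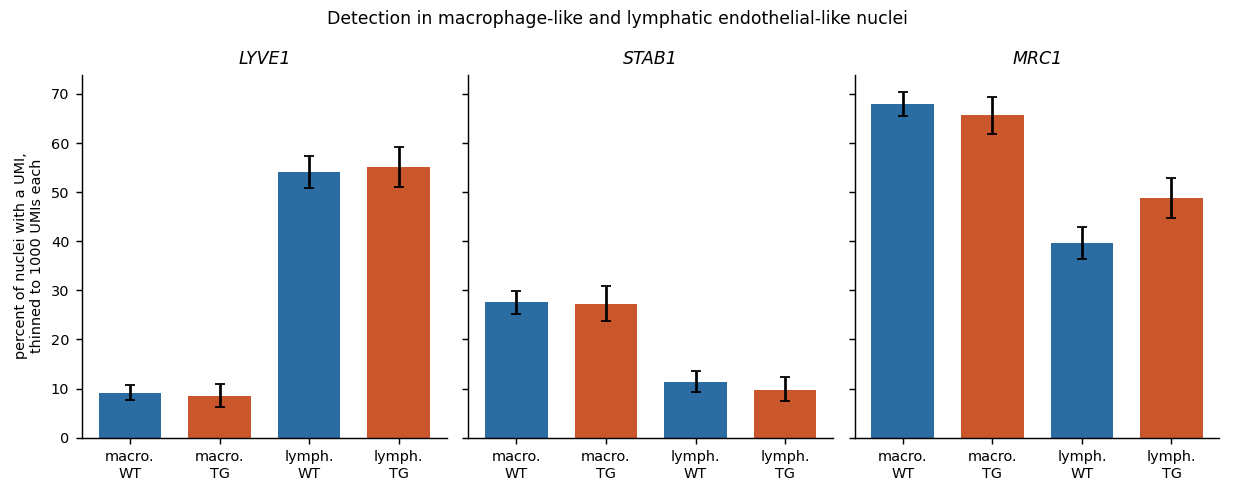
Share of nuclei (percent, axis from 0) with at least 1 UMI of LYVE1, STAB1 or MRC1 after thinning to 1000 UMIs, in macrophage-like and lymphatic endothelial-like nuclei of WT (blue) and TG (orange), with exact 95% Clopper-Pearson intervals. LYVE1 is seen in 54.0% and 55.2% of lymphatic nuclei and under 10% of macrophage-like nuclei, and STAB1 and MRC1 are seen more often in macrophage-like nuclei.

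LYVE1 and STAB1 occurred together in single nuclei of both classes. Both were seen in 59 of 927 thinned WT lymphatic nuclei (6.36%, 4.88% to 8.13%) and 39 of 580 TG lymphatic nuclei (6.72%, 4.82% to 9.08%). Among WT lymphatic nuclei STAB1 was seen in 11.8% of those with LYVE1 and 10.8% of those without, and in TG in 12.2% (8.81% to 16.3%) and 6.54% (3.85% to 10.3%). In macrophage-like nuclei without M2, STAB1 was seen in 34.8% (26.8% to 43.6%) of WT nuclei with LYVE1 and 32.1% of those without. The TG shares there were 51.9% (37.6% to 66.0%) and 34.9%. In WT the shares with and without LYVE1 were close, and in TG they were further apart but with overlapping intervals. Such overlap does not decide whether the TG shares differ, and they were not compared directly.

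Macrophage markers were seen at overlapping shares in lymphatic nuclei with and without LYVE1 or STAB1. Lymphatic markers, in contrast, were seen less often in TG macrophage-like nuclei with STAB1 or MRC1 than in those without, M2 included. In M2, 83.3% of thinned TG nuclei held no member UMI, and nearly all TG nuclei with STAB1 or MRC1 lay outside it. These shares were not computed without M2, so the difference cannot be told apart from one between M2 and the other sub-clusters. At least 1 UMI of the 13 macrophage markers was seen in 22.4% of WT lymphatic nuclei with LYVE1 and 22.3% of those without, and in TG in 24.1% and 28.5%. With STAB1 the shares were 17.1% in WT and 23.2% in TG, against 23.0% and 26.3% without it. None of the 13 markers was at 0 in the lymphatic class, and their summed level was 229 CPM in WT and 282 CPM in TG, between the levels in vascular endothelial-like nuclei (167 and 207 CPM) and in macrophage-like nuclei (5843 and 5440 CPM). In macrophage-like nuclei the 10 lymphatic markers summed to 117 CPM in WT and 274 CPM in TG. Of these markers 2 and 1 were at 0. Their sums were 163 and 186 CPM in fibroblast-like nuclei, and 178 and 183 CPM in cardiomyocytes. PROX1, highest in lymphatic endothelial-like nuclei, by itself stood at 160 and 131 CPM in cardiomyocytes, but at 4.10 and 10.3 CPM in macrophage-like nuclei. The cardiomyocyte sum therefore cannot serve as a background level for these markers.

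The members were not spread evenly over the macrophage-like sub-clusters. M0, led by CDH20 and C8orf34, had CD163 in 99.4% of its WT nuclei, MRC1 in 97.7%, F13A1 in 89.5%, MERTK in 89.6%, STAB1 in 78.8%, MSR1 in 71.7% and LYVE1 in 33.9%. M1, led by NBEA and PLXDC2 and mostly TG, had CD163 in 97.5% of its TG nuclei, MRC1 in 96.0%, F13A1 in 92.6%, MERTK in 71.4%, STAB1 in 62.6%, MSR1 in 62.2% and LYVE1 in 23.0%. M3, led by haemoglobin genes such as HBB, had the shallowest nuclei of the 4 sub-clusters, and its CPM of CD163 (2667), MRC1 (2176), STAB1 (412) and LYVE1 (139) lay near those of M0 (2776, 2329, 385 and 129). CSF1R, the receptor for the macrophage growth factor CSF1, was seen in 96.4%, 87.5% and 83.9% of M0, M1 and M3.

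M2 held CSF1R without the scavenger genes. CSF1R was seen in 92.4% of its WT and 74.7% of its TG nuclei, at 857 and 682 CPM, and 12 of 13 macrophage markers were raised. Yet CD163 stood at 64.5 CPM in WT and at 96.7 CPM in TG, MRC1 47.9 and 56.2 CPM, F13A1 29.1 and 31.5 CPM, and LYVE1 5.20 and 6.75 CPM. MERTK, at 77.0 and 85.5 CPM, was near its vascular endothelial level in WT. No member UMI at all was found in 90.9% (86.4% to 94.3%) of thinned WT and 83.3% (76.7% to 88.7%) of thinned TG nuclei of M2, against 0.237% of M0 in WT and 1.34% of M1 in TG. M2 was led by PLVAP, KANK1, TNIK, KIT and ADGRG3, had TBXAS1, thromboxane synthase, at 2453 and 1696 CPM, and CX3CR1, the fractalkine receptor, at 116 and 128 CPM. It made up 15.9% of the class in WT and 26.2% in TG.

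Related sub-clusters set aside from the class, because their leading genes belonged more to another class, had partial sets of members. M8, with 13 WT and 112 TG nuclei, was led by NRG1, SPP1, FN1, APOE and TGM3. It also carried S100A12 (187 CPM), VCAN (1428 CPM) and CCR2 (199 CPM), genes of recruited monocytes, in TG. There F13A1 measured 1631 CPM and CD163 1397 CPM, while MRC1 measured 123 CPM, STAB1 72.5 CPM and LYVE1 2.01 CPM (1 UMI). M6, with 147 WT and 27 TG nuclei and led by SULF1, FLT3 and BCL11A, had MRC1 at 1397 CPM, CD163 at 1472 CPM and F13A1 at 1135 CPM in WT, and LYVE1 at 4.30 CPM (3 UMIs). LYVE1, CD209 and TIMD4 were thus seen mainly in M0, M1 and M3, and CD163 and F13A1 in M6 and M8 as well.

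**Figure D3:**
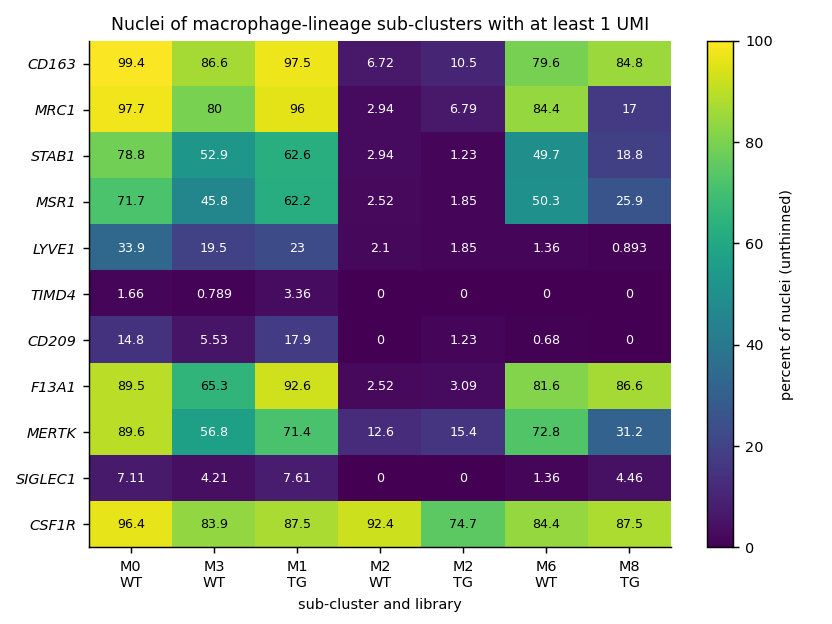
Percent of nuclei with at least 1 UMI (unthinned, printed in each cell) of the 10 members and CSF1R in sub-clusters with at least 100 nuclei in the library shown. Sub-clusters set aside as mixed, such as M4 and M7, are left out. Members are frequent in M0, M3 and M1 and rare in M2, where CSF1R is still seen in 92.4% and 74.7%. M8 holds CD163 and F13A1 with little MRC1 or LYVE1. The nuclei of M1, M2 and M3 are shallower than those of M0 (median 2679, 2991.5 and 2011.5 against 4390 UMIs).

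Between the libraries, a member counted as higher or lower when its CPM differed by at least 1.5 times, its interval left out 1 and at least 20 UMIs were found over both. In macrophage-like nuclei 4 of 10 members were higher in TG, 0 lower and 6 neither. Of all 12180 genes measured there, 16.4% were higher and 6.97% lower, and the median log2 ratio was 0.24 for the members and 0.06 for all genes. CD163 (2293 and 4155 CPM) was 1.81 times as high in TG (1.76 to 1.86), CD209 (44.2 and 77.2 CPM) 1.74 times (1.41 to 2.16), TIMD4 (3.93 and 13.1 CPM) 3.35 times (1.79 to 6.24) and SIGLEC1 (14.9 and 22.3 CPM) 1.5004 times (1.001 to 2.21), at the edge of both limits. The SIGLEC1 call was kept under 10 of 17 alternatives, and its direction turned under 2 of them, to log2 ratios of -0.14 with the members among the variable genes and -0.026 in thinned nuclei. The TIMD4 and SIGLEC1 values rest on 46 and 126 UMIs in all.

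The other 6 members did not pass. MRC1 stood at a ratio of 0.961 (0.924 to 0.999), STAB1 at 0.990 (0.899 to 1.09), MSR1 at 0.969 (0.893 to 1.05) and LYVE1 at 0.855 (0.716 to 1.02). F13A1 was at 1.40 (1.33 to 1.47) and MERTK at 0.729 (0.674 to 0.787), both with intervals that left out 1 but short of 1.5-fold. Without M2, 5 members were higher, F13A1 among them at 1.57 (1.49 to 1.65), and 0 lower, beside 15.9% and 6.70% of all genes. Inside M2 only CD163, MRC1, F13A1 and MERTK had enough UMIs, and none of these 4 passed, beside 9.80% higher and 7.76% lower of 7731 genes.

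These counts depended on which nuclei made up the class. When the members were allowed among the variable genes, 0 members were higher and 5 lower (MRC1, STAB1, MSR1, LYVE1 and MERTK), and at a clustering resolution of 0.5 there was 1 higher (TIMD4) and 2 lower (MRC1 and MERTK). Under both settings most TG nuclei of M4 joined the class, 208 and 194 of 210, and so did 123 of 147 WT nuclei of M6. At resolution 0.5, 135 of 153 WT nuclei of M7, another mixed sub-cluster, joined as well. M4 was otherwise set aside as mixed: in TG it held the cardiomyocyte gene RYR2 at 13286 CPM beside CSF1R at 163 CPM and CD163 at 613 CPM. With all mixed clusters counted in their highest-scoring class, 0 members were higher and 1 lower. Scaled to the summed UMIs of the 13 macrophage markers in place of all UMIs, 5 were higher and 0 lower without the mixed clusters (CD163, TIMD4, CD209, F13A1 and SIGLEC1), and 4 higher and 0 lower with them. When a library-wide profile was subtracted at the share that accounts for the cardiomyocyte markers, 5 were higher and 0 lower. That share was 9.02% of the UMIs of the class in WT and 36.1% in TG. Taking more from the TG total by itself raises the TG ratio of genes found mainly in this class. The count after subtraction therefore does not tell what free RNA adds to the calls. With each library clustered on its own 5 were higher and 0 lower, although 132 of 153 WT nuclei of M7, where RYR2 was at 15686 CPM, had joined the class.

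**Figure D4:**
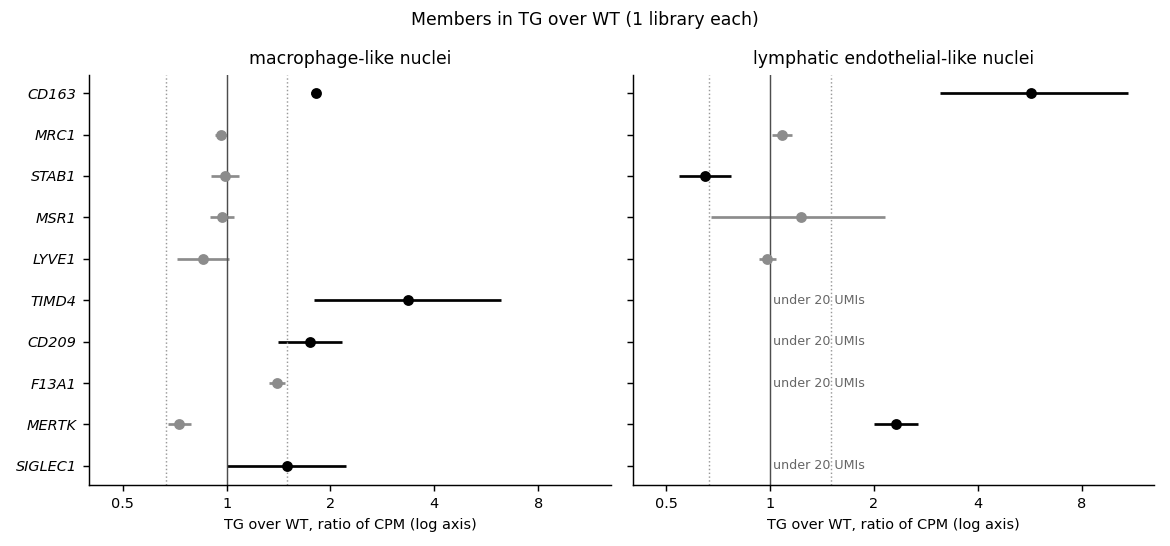
Ratio of TG over WT CPM (log axis) for each member in macrophage-like and lymphatic endothelial-like nuclei, with 95% counting intervals; black points passed 1.5-fold (dotted lines) with an interval that leaves out 1, grey points did not. CD163, TIMD4, CD209 and SIGLEC1 lie to the right in macrophage-like nuclei, and MERTK lies at 0.729 there and at 2.32 in lymphatic endothelial-like nuclei.

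In lymphatic endothelial-like nuclei 6 members had enough UMIs, of which 2 were higher in TG, 1 lower and 3 neither, beside 11.6% higher and 7.88% lower among 12152 genes. MERTK was 2.32 times as high in TG (2.01 to 2.68), from 87.4 to 203 CPM, and kept this call under all 13 alternatives run for it. STAB1 was lower at 0.648 (0.543 to 0.769), from 145 to 94.1 CPM, and kept this call under 9 of 13. CD163 was higher at 5.71 (3.12 to 10.9), on 17 and 35 UMIs, with log2 ratios from 1.19 (each library clustered on its own) to 2.62 under its alternatives against 2.51 as reported, and the call was kept under 11 of 12. The subtraction of the library-wide profile is not among these 12. It took away all CD163 UMIs of this class in both libraries, so no ratio could be formed. LYVE1, at 0.980 (0.926 to 1.04), and MRC1, at 1.08 (1.01 to 1.16), were close to equal levels. Vascular endothelial-like nuclei also had more MERTK in TG, 157 against 84.8 CPM, a ratio of 1.85 (1.66 to 2.07).

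The other classes, with low levels of most members, differed among themselves. Vascular endothelial-like nuclei nevertheless gave 35.9% of MERTK UMIs in TG. Fibroblast-like nuclei gave 40.2% of SIGLEC1 UMIs in WT and 36.2% in TG. In cardiomyocytes 7 of 9 measured members were higher in TG and 0 lower, beside 25.6% and 8.83% of 18881 genes. In vascular endothelial-like nuclei 3 of 7 were higher and 0 lower, beside 12.4% and 7.92% of 14198 genes, and in pericyte-like nuclei 2 of 7 and 0, beside 12.4% and 9.95% of 12548 genes. In T or NK lymphocyte-like nuclei 0 of 7 were higher and 0 lower, beside 17.5% and 13.4% of 12699 genes. In fibroblast-like nuclei 7 of 8 measured members were higher in TG and 0 lower, beside 17.0% and 9.02% of 14913 genes, but at low levels: CD163 stood at 4.98 and 23.4 CPM, MRC1 at 7.80 and 17.1 CPM and STAB1 at 3.78 and 9.56 CPM. The lymphatic CD163 level in TG, 20.2 CPM, was in the range of the TG fibroblast (23.4 CPM), pericyte (25.8 CPM) and vascular endothelial (18.3 CPM) levels. The TG lymphatic MERTK level, 203 CPM, was above the TG fibroblast level of 14.3 CPM.

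Summed over all nuclei, where fewer nuclei of a type and less RNA per nucleus cannot be told apart, 0 members were higher in TG and 4 lower, beside 20.4% and 9.44% of 21740 genes. MRC1 was lower, at 154 and 83.4 CPM, a ratio of 0.543 (0.528 to 0.557), as were STAB1 at 30.4 and 19.0 CPM (0.625), MSR1 at 30.6 and 19.3 CPM (0.631) and LYVE1 at 54.2 and 33.3 CPM (0.614). CD163 was at 148 and 150 CPM. The macrophage-like share of nuclei was 8.93% and 4.14% in the same libraries, and the lymphatic share 5.55% and 3.88%. These shares leave out the mixed clusters. With those counted in their highest-scoring class, macrophage-like nuclei rose from 1494 to 1819 in WT and from 618 to 1100 in TG. Lymphatic endothelial-like nuclei rose from 928 to 1084 in WT and from 580 to 763 in TG.

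Other genes of the members' pathways, from lists written with earlier results of these data known, lay in both directions in macrophage-like nuclei. All 11 measured cardiomyocyte markers were higher in TG there (median log2 ratio 1.67). Of all 12180 genes measured in these nuclei, 16.4% were higher and 6.97% lower, with a median log2 ratio of 0.06. These shares stand beside each list below. Of 10 measured other scavenger receptors 3 were higher in TG, 3 lower and 4 neither (median log2 0.22). MARCO, a class A receptor, stood at 3.59 and 32.6 CPM and CD36, a fatty acid and lipoprotein receptor, at 453 and 944 CPM. CD14, a co-receptor for bacterial lipopolysaccharide, stood at 109 and 187 CPM. The lower genes were COLEC12, another class A receptor (3756 and 2228 CPM), MEGF10 (27.0 and 16.6 CPM) and SCARB1, the high-density lipoprotein receptor (612 and 393 CPM). Of 11 efferocytosis genes 4 were higher, 2 lower and 5 neither (median 0.10); ABCA1, the cholesterol exporter, was lower at 704 and 308 CPM, and GAS6, a ligand of MERTK, was higher at 6.66 and 17.2 CPM. MFGE8, a bridging molecule to dying cells (4.44 and 10.9 CPM), and GULP1, an engulfment adaptor (8.37 and 29.2 CPM), were also higher.

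Of 12 resident macrophage genes 1 was higher in TG, 3 lower and 8 neither (median -0.21), beside 16.4% higher and 6.97% lower of all genes. IGF1, a growth factor, was lower at 464 and 189 CPM, SELENOP, a selenium carrier, at 1237 and 772 CPM and SPIC, a transcription factor of iron-recycling macrophages, at 31.8 and 15.4 CPM. ID3, a transcriptional regulator, was higher at 3.25 and 27.4 CPM, and NR1H3, the liver X receptor alpha, did not pass, with a log2 ratio of 0.78. Of 8 genes of haemoglobin and iron handling, the pathway downstream of CD163, 1 was higher, 3 lower and 4 neither (median -0.32). SLC11A1, an iron transporter of phagosomes, was higher at 60.5 and 201 CPM, and the ferritin chain FTL (416 and 153 CPM), the biliverdin reductase BLVRB (21.7 and 10.9 CPM) and the iron exporter SLC40A1 (804 and 519 CPM) were lower.

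The smaller lists gave 1 higher, 0 lower and 4 neither of 5 hyaluronan genes, with CD44, the other main hyaluronan receptor, higher at 104 and 159 CPM. Of 4 lectins, LY75 (3.76 and 11.4 CPM) and MRC2 (45.4 and 75.5 CPM) were higher and 2 neither. Of 8 genes of macrophage growth factors IL34 was higher (6.49 and 46.9 CPM) and 7 neither, CSF1R among them at 1065 and 895 CPM. In the transglutaminase list, around the enzyme family of F13A1, both measured genes, FN1 (3.59 and 21.2 CPM) and TGM2 (11.4 and 31.4 CPM), were higher. The library-wide profile was subtracted for the members alone, so what free RNA adds to any of these lists was not tested.

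The genes most like a member were found by Pearson's r of log levels over 18 combinations of class and library, as a description, since these points share libraries, depth and free RNA. CD163 was most like C5AR1, CSF1R and MS4A7 (r = 0.98, 0.97 and 0.97), and F13A1 was most like the same 3 genes. MSR1 was most like VSIG4, CSF1R and C1QC (0.96 each). LYVE1 was most like RPS6KL1, IL7 and CCL21 (0.93, 0.92 and 0.91), the last a chemokine of lymphatic endothelium. MRC1 and STAB1, present in both classes, had SLC66A1 as their closest gene (0.94 each), and MERTK had TMEM106A (0.91). CD209 and TIMD4 had SLC11A1 and DCDC2 among their closest 3, and SIGLEC1 had TNFSF15, SLC40A1 and CTSH.

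Within the macrophage lineage, over 10 combinations of sub-cluster and library, the closest genes were others. LYVE1 was most like TMEM266, SMARCA1 and CHN2 (0.99, 0.96 and 0.95), MERTK most like PDE4D, CCL14 and ABCG2 (0.99, 0.99 and 0.98), and F13A1 most like ADAM19, MAPK14 and RCBTB2 (0.98, 0.98 and 0.97). CD163 was most like IQGAP2, FMN1 and PEAK1 (0.98, 0.97 and 0.97), and STAB1 and MSR1 shared TBC1D12 as their closest gene (0.99 and 0.98).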

How the data were processed

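Nuclei in 1 WT and 1 TG library were profiled with 10x Genomics 3' chemistry. The deposited values are whole UMI counts per gene and nucleus, made by the authors with Cell Ranger (version 3.1.0 per the submitters' processing notes, 5.0.0 per the file headers) on Sscrofa11.1. Seurat 3.1.1 is also named in those notes, and its role is not given in the sources used here. Here nuclei with fewer than 500 genes (943 WT, 1 TG) or over 5% mitochondrial UMIs (812 WT, 60 TG) were dropped, and a nucleus could fail both limits. Both libraries were clustered together with scanpy 1.11.5 and leidenalg 0.10.2, with the 10 members left out of the variable genes. Clusters were named from marker lists, and the limits that decide a name, or that a cluster is mixed, were chosen with the clusters in view. Scrublet marked 6.95% of WT and 0 TG nuclei, so it was not used and doublets were met only by setting mixed clusters aside.

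Levels are summed counts in CPM with exact Poisson intervals, shares have Clopper-Pearson intervals, and ratios have conditional binomial intervals, all at 95%. The limit of a count of 0 is 3 UMIs. The scripts were tested on simulated counts. With 1 library per genotype edgeR 4.0.16 was used for TMM scaling alone, as an alternative. All 10 members were named. From each pathway list at most 4 genes furthest apart between the libraries were named, and MEGF10, SCARB1 and SELENOP were added after their values were seen. The members and lists were chosen with earlier results of these data known. Symbols were in the matrices for 16498 of 31908 genes and were added from a reference table for 841. Gene positions and neighbours are from RefSeq. One pathway list is not reported here.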

Additional observations from a re-analysis of the deposited data

Results flagged for a closer look

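MERTK differed in opposite directions between the libraries in the 2 classes compared. In macrophage-like nuclei its level was 628 CPM in WT and 457 CPM in TG (log2 ratio -0.46), and in lymphatic endothelial-like nuclei it was 87.4 and 203 CPM (log2 ratio 1.21). The gap between these log2 ratios was 1.67. The macrophage ratio did not pass 1.5-fold, and under the alternatives it ran from -1.28 with the members among the variable genes to 0.0095 with the free RNA profile subtracted, so the opposite direction was not seen under the latter. The difference was not tested, since each genotype has 1 library.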

How the results depend on the processing

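With 4 members higher and 0 lower in TG macrophage-like nuclei as reported, the count of higher members was 0 with the members among the variable genes, 1 at resolution 0.5, 2 in thinned nuclei and 0 with mixed clusters counted in, and between 3 and 5 under the other alternatives. The count of lower members was 5 with the members among the variable genes, 2 at resolution 0.5, 1 with mixed clusters and 1 with TMM scaling, and 0 otherwise. SIGLEC1 reversed, to log2 ratios of -0.14 with the members among the variable genes and -0.026 in thinned nuclei. LYVE1, macrophage over lymphatic, was 0.114 in WT and became 0.0996 at resolution 0.5, 0.103 with each library on its own, 0.101 in thinned nuclei, 0.102 with mixed clusters and 0.135 without M2. In TG it was 0.0995 and became 0.0832 with the members among the variable genes, 0.140 with each library on its own and 0.131 without M2. STAB1 was 2.25 in WT and became 1.99, 2.00, 2.78, 1.96 and 2.67 under the same settings as LYVE1 in WT. In TG it was 3.43 and became 2.59 with the members among the variable genes, 2.53 at resolution 0.5, 4.33 with each library on its own, 2.49 with mixed clusters and 4.59 without M2. LYVE1 stayed higher in lymphatic and STAB1 in macrophage-like nuclei under all of these. Apart from the changed membership given in the report, the cause was not tested. The settings on M2, M3, shared barcodes and marker scaling were chosen after seeing the data. No paired analysis was possible because each genotype has 1 library. Depth limits TIMD4, SIGLEC1 and, in lymphatic nuclei, CD163.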
